A study of Mus musculus with 9 samples.

Results

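The genes described are 8 that carry migration signals of interneurons: the neuregulin receptor Erbb4, the neuregulins Nrg1, Nrg2 and Nrg3, the chemokine receptors Cxcr4 and Ackr3, their ligand Cxcl12, and the adhesion molecule Cxadr. They were chosen by symbol, and all were found among the 37224 genes of the deposited count table. RNA sequencing covered 9 mouse libraries of the strain C57BL/6 in 3 groups of 3. The iGABA libraries came from unpassaged primary fibroblasts after 14 days of direct conversion into GABAergic interneurons, of which the first 2 days were in fibroblast medium. The study delivered a set of transcription factors for this, among them Sox2, Dlx5 and Lhx6, which the labels do not list. The GAD67 libraries came from primary cortical interneurons at E18.5, carrying a GFP reporter of Gad1, a gene for GABA synthesis. The MEF libraries came from the unpassaged E13.5 fibroblasts. GFP sorting was applied to the iGABA and GAD67 cells but not to the fibroblasts, so comparisons with MEF also set sorted against unsorted cells. The labels mention a change of the MEF cells to neuronal inducing medium without saying whether it preceded RNA extraction, and do not say which reporter marked the iGABA cells. They do not say either whether the libraries of a group came from separate cultures or animals, so p-values measure the spread between these libraries, which may be technical.

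Cortical interneurons are born in the ventral forebrain and migrate tangentially into the cortex. Neuregulins are EGF-like ligands of the receptor tyrosine kinase ErbB4, which migrating interneurons carry, and they guide these cells along permissive corridors toward the cortex. Cxcl12 is a chemokine made by the meninges and by intermediate progenitors of the cortex. It keeps interneurons within their migratory streams through the G protein-coupled receptor Cxcr4, while the atypical receptor Ackr3 binds and removes Cxcl12 and acts through arrestins.

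Library totals ran from 27501521 to 38975523 counts. Levels are given as CPM, the counts of a gene relative to a library total scaled by TMM, a method that equalises the bulk of genes between libraries, and as RPKM, the same value per kilobase of the deposited gene length, where genes are compared with each other. Marker lists checked the labels. Summed interneuron markers (15 genes) stood at 761 to 768 CPM in iGABA, 5495 to 5802 CPM in GAD67 and 98.0 to 113 CPM in MEF libraries. Of the iGABA sum, 405 ± 8.21 CPM came from Gad1. A GFP reporter of Gad1 marked the sorted GAD67 cells, and Dlx5 and Lhx6 of the list were delivered to the iGABA cells. These genes are thus no independent check of those labels. Summed fibroblast markers (11 genes) stood at 747 to 1042 CPM in iGABA, 135 to 143 CPM in GAD67 and 79946 to 88639 CPM in MEF libraries. Markers of glutamatergic neurons and their progenitors (10 genes) summed to 514 to 642 CPM in iGABA, 1169 to 1211 CPM in GAD67 and 41.1 to 45.4 CPM in MEF libraries, with Neurod6, Neurod2 and Emx1 at no count in MEF. Of the GAD67 sum, 1124 ± 9.40 CPM came from Bcl11b, which is also known from interneurons. By gene, 4 were called higher, 3 lower and 3 not called in iGABA over MEF, so the rise of the sum is not shared by most of the list. The median log2 fold change was 1.16, or 0.29 with groups at no count set to 3 counts. In iGABA over GAD67, 2 were higher and 8 lower (median log2 fold change -4.48). Calls, and their shares over all tested genes, are given with the 8 genes below. Cajal-Retzius markers (7 genes) summed to 186 to 198 CPM in iGABA, 85.6 to 109 CPM in GAD67 and 103 to 112 CPM in MEF libraries, with Lhx5 and Lhx1 at no count in MEF. Although the GAD67 and MEF sums were alike, 4 of 6 tested genes were called higher and 2 lower in GAD67 over MEF (median log2 fold change 3.15). With groups at no count set to 3 counts that median was 2.58. In iGABA over GAD67, 3 were higher, 2 lower and 1 not called. Glial and oligodendrocyte precursor markers (11 genes) summed to 166 to 193 CPM in iGABA, 41.6 to 52.6 CPM in GAD67 and 426 to 456 CPM in MEF libraries, with Olig2 at no count in iGABA and MEF. Of 10 tested, 3 were called higher, 6 lower and 1 not called in iGABA over GAD67 (median log2 fold change -1.37). The higher iGABA sum thus does not describe most of these genes. Pdgfra is also in the fibroblast list and Cspg4 in the endothelial and mural list, so the MEF sum is not specific to glia.

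**Figure D1:**
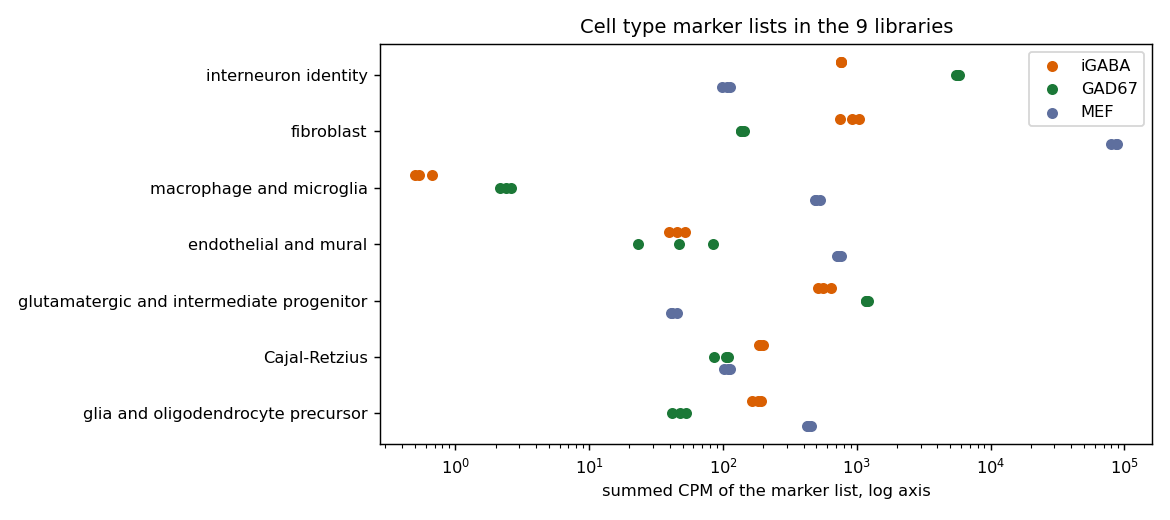
Summed CPM of each cell type marker list (horizontal log axis) in each of the 9 libraries, one point per library. GAD67 libraries lead the interneuron list at 5495 to 5802 CPM, MEF libraries lead the fibroblast, macrophage and endothelial lists, and GAD67 libraries spread from 23.2 to 84.3 CPM on the endothelial and mural list.

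In the converted cells Erbb4 and Cxcr4 were far below the interneuron level, and Cxcl12 was far below the fibroblast level. In iGABA over GAD67, all 8 genes were called lower and none higher, where 80.6% of the 18085 tested genes were called, 41.3% higher and 39.3% lower. Erbb4, Nrg3 and Cxcr4 were at least 32-fold lower, a size called lower in 2.07% and higher in 4.43% of tested genes. In iGABA over MEF, Nrg2 and Cxadr were higher, 5 genes (Erbb4, Nrg1, Cxcr4, Ackr3 and Cxcl12) were lower and Nrg3 was not called, where 81.9% of tested genes were called, 42.1% higher and 39.7% lower. In GAD67 over MEF, 6 genes were higher, Cxcl12 was lower and Nrg1 was not called, where 86.9% of tested genes were called, 43.1% higher and 43.8% lower. The shares of the 8 genes called in either direction lie near these backgrounds, so the sizes describe them better than the calls. At least 32-fold differences in GAD67 over MEF were found for Erbb4, Nrg3 and Cxcr4 (higher, as in 4.98% of tested genes) and for Cxcl12 (lower, as in 9.34%). A gene was called at an adjusted p under 0.05 in edgeR's quasi-likelihood test. The median log2 fold change of the 8 genes was -0.66 in iGABA over MEF, -2.79 in iGABA over GAD67 and 3.63 in GAD67 over MEF, where the medians of all tested genes were 0.047, 0.022 and 0.00. Scaling by library size alone moved those medians to 0.46, 0.22 and 0.22, and split the calls of iGABA over MEF into 9941 higher and 5283 lower, against 7618 and 7188 with TMM. The comparisons share libraries and are not independent of each other. Nrg3 passed the filter on low counts through its GAD67 libraries alone, so its difference from that group was a condition of being tested.

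**Figure D2:**
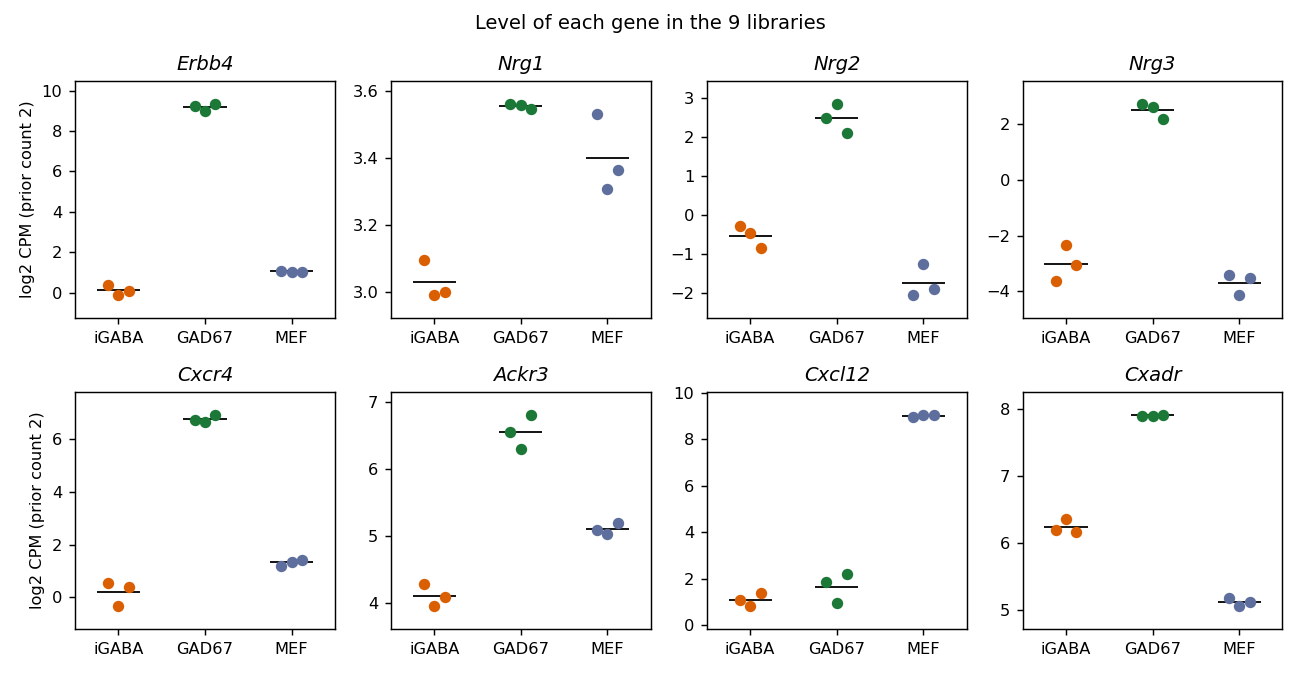
Level of each of the 8 genes in the 9 libraries, as log2 CPM with a prior count of 2, one point per library and a line at the group mean, each panel with its own axis. Erbb4 and Cxcr4 are high in GAD67 libraries, Cxcl12 is high in MEF libraries, and Cxadr takes 3 separate levels.

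The windows just upstream of 4 of these genes are shown because their transcripts differ most between the cell types or make up the ligand and receptors of the chemokine axis. Each holds 250 bases before the RefSeq start in GRCm38.p6, 5′ to 3′ on the strand of the gene. They lie at chr1:69108060-69108309 on the minus strand for Erbb4, chr1:128592300-128592549 on the minus strand for Cxcr4, chr1:90203730-90203979 on the plus strand for Ackr3 and chr6:117168285-117168534 on the plus strand for Cxcl12. Capitals mark matches to the short motifs described after them.
Erbb4: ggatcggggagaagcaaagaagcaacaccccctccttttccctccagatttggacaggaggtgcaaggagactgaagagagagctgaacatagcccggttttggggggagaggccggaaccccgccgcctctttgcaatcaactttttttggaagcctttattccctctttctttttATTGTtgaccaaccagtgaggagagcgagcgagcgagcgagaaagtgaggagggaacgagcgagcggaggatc
Cxcr4: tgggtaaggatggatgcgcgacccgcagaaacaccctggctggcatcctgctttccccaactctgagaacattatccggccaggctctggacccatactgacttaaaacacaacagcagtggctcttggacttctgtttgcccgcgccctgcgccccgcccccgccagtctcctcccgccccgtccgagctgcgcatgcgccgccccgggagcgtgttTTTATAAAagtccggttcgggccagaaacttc
Ackr3: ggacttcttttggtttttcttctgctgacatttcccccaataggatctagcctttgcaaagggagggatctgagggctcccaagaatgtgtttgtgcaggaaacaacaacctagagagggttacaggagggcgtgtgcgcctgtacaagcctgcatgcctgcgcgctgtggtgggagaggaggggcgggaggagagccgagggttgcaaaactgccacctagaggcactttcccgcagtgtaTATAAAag
Cxcl12: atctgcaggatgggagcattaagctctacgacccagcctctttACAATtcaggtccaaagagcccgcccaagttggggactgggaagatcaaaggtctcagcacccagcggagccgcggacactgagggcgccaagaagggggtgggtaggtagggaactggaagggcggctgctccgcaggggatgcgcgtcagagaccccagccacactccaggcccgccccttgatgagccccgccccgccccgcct
The motifs searched on both strands were the homeodomain core TAATTA, the Sox core ACAAT, the forkhead core TGTTTA and the TATA-box core TATAAA. RefSeq windows were at hand for 5 of the 8 genes, the 4 above and Nrg3, and not for Nrg1, Nrg2 and Cxadr. None of the 5 held the homeodomain core or the forkhead core, which were found in 1590 and 3952 of 32851 windows of the same length. The Sox core was found in 2 of the 5 (Erbb4 and Cxcl12) and in 27.7% of all windows. The TATA-box core was found in 2 of the 5 (Cxcr4, where matches on both strands overlap, and Ackr3) and in 12.4% of all windows. The Cxcr4 window held 19 CpG pairs and the Ackr3 window 7, where the median window held 6. A match describes letters in a window and not a bound site.

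Erbb4 (ENSMUSG00000062209, mm10 chr1:68032186-69108059, minus strand), the neuregulin receptor, was far higher in the GAD67 cells than in the other groups. It stood at 1.26, 0.860 and 1.001 CPM in iGABA libraries, 612, 506 and 647 CPM in GAD67 libraries, and 2.05, 2.01 and 1.99 CPM in MEF libraries. All GAD67 libraries were far above all others, and all iGABA libraries were below all MEF libraries. Erbb4 was 563-fold lower in iGABA than in GAD67 cells (log2 fold change -9.14, 95% interval -9.43 to -8.84, edgeR adjusted p = 1.29e-14), the 40th of the 18085 tested genes ordered from the lowest ratio. Against MEF it was also lower in iGABA cells, at a log2 fold change of -0.95 (95% interval -1.38 to -0.52, edgeR adjusted p = 0.000644). In GAD67 cells it was 291-fold above MEF (edgeR adjusted p = 4.75e-15). These levels rest on 119 counts in iGABA, 65941 in GAD67 and 183 in MEF libraries. In bulk libraries, fewer cells with a transcript and less transcript per cell cannot be told apart.

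Among the ligands, Nrg1 lay within a narrow range in all 3 cell types, while Nrg2 and Nrg3 were highest in GAD67 cells. Nrg1 (ENSMUSG00000062991, mm10 chr8:31818028-31918203, minus strand), the founding neuregulin, stood at 8.49, 7.88 and 7.94 CPM in iGABA libraries, 11.8, 11.7 and 11.6 CPM in GAD67 libraries, and 11.5, 9.84 and 10.2 CPM in MEF libraries. The iGABA libraries were the lowest, and the GAD67 libraries lay just above the highest MEF library. Nrg1 was 1.44-fold lower in iGABA than in GAD67 cells (log2 fold change -0.53, 95% interval -0.74 to -0.32, edgeR adjusted p = 0.000187). It was 1.30-fold lower in iGABA than in MEF cells (log2 fold change -0.38, 95% interval -0.58 to -0.17, edgeR adjusted p = 0.00290), but with library size alone the value turned to 0.040 (edgeR adjusted p = 0.711). GAD67 and MEF cells differed by a log2 fold change of 0.15 (95% interval -0.051 to 0.36, edgeR adjusted p = 0.141), which was called with library size alone (0.38, edgeR adjusted p = 0.00300). The deposited Nrg1 model spans 100176 bases at the 3′ side of a locus of 1069479 bases in GENCODE vM21, and holds 20.3% of its exon bases. Reads on the other exons, such as alternative first exons, did not enter these values, so isoforms were not distinguished.

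Nrg2 (ENSMUSG00000060275, mm10 chr18:36017707-36197380, minus strand), another neuregulin, stood at 0.767, 0.669 and 0.5003 CPM in iGABA libraries, 5.62, 7.19 and 4.29 CPM in GAD67 libraries, and 0.183, 0.362 and 0.211 CPM in MEF libraries. The groups did not overlap. Nrg2 was 8.69-fold lower in iGABA than in GAD67 cells (edgeR adjusted p = 7.86e-08) and 2.56-fold higher than in MEF cells (log2 fold change 1.35, 95% interval 0.51 to 2.20, edgeR adjusted p = 0.00610), on 75 counts in iGABA and 23 counts in MEF libraries. GAD67 cells were 22.2-fold above MEF cells (edgeR adjusted p = 9.98e-09). Nrg3 (ENSMUSG00000041014, mm10 chr14:38368952-39473088, minus strand), a neuregulin of the nervous system, had 1, 6 and 2 counts in iGABA libraries, 255, 225 and 158 in GAD67 libraries, and 1, 0 and 1 in MEF libraries. Outside the GAD67 cells it was thus near the detection limit. It was 68.8-fold lower in iGABA than in GAD67 cells (log2 fold change -6.10, edgeR adjusted p = 2.96e-09). Because Nrg3 passed the low-count filter through its GAD67 libraries alone, the edgeR p-values against that group are no independent support for the difference. Without iGABA library 5, which held 6 of the 9 iGABA counts, the log2 fold change was -6.97 (edgeR adjusted p = 1.79e-08). The ratio of iGABA to MEF was 3.58 with an exact 95% counting interval of 0.740 to 34.02 (edgeR adjusted p = 0.137), so no difference was detectable at this depth. The ratio of GAD67 to MEF was 258, with a counting interval of 71.1 to 2135, and intervals of this kind cover counting error only.

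Per length, Nrg1 took the largest share of neuregulin reads in every group and the other neuregulins took more in GAD67 cells. Nrg1 made up 94.6% ± 0.917 in iGABA, 67.7% ± 4.83 in GAD67 and 98.3% ± 0.667 in MEF libraries (SD, n = 3). Nrg2 made up 5.12% ± 0.892 in iGABA, 22.2% ± 4.11 in GAD67 and 1.64% ± 0.721 in MEF libraries. Nrg3 made up 0.281% ± 0.225 in iGABA, 10.01% ± 1.39 in GAD67 and 0.0623% ± 0.0540 in MEF libraries. No pair of groups overlapped in the Nrg1 share, with an exact two-sided permutation p of 0.1 for each pair (adjusted p = 0.129 over 9 tests), the smallest that 3 against 3 libraries allow. The Nrg3 share gave the same exact p for both pairs with GAD67, and an exact permutation p of 0.3 between iGABA and MEF. These rest on the Nrg3 counts used above, 638 in GAD67, 9 in iGABA and 2 in MEF libraries. They are thus no independent support for a difference from GAD67 cells. These shares carry the limit of the short Nrg1 model, and they depend on the length scaling. With raw counts in place of reads per kilobase, the iGABA minus GAD67 difference was 40.7 percentage points for Nrg1 and -23.5 for Nrg3, against 26.9 and -9.73 per length.

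Both Cxcl12 receptors were highest in GAD67 cells, but outside them Ackr3 had a moderate level and Cxcr4 a very low one. Cxcr4 (ENSMUSG00000045382, mm10 chr1:128588199-128592293, minus strand), the signalling receptor, stood at 1.39, 0.741 and 1.25 CPM in iGABA libraries, 106, 100.03 and 121 CPM in GAD67 libraries, and 2.23, 2.501 and 2.63 CPM in MEF libraries. All iGABA libraries were below all MEF libraries, and the GAD67 libraries were far above both. Cxcr4 was 97.5-fold lower in iGABA than in GAD67 cells (log2 fold change -6.61, 95% interval -6.92 to -6.29, edgeR adjusted p = 2.10e-13) and 2.21-fold lower than in MEF cells (log2 fold change -1.14, 95% interval -1.58 to -0.70, edgeR adjusted p = 0.000174). In GAD67 cells it was 44.1-fold above MEF (edgeR adjusted p = 2.50e-13). Macrophages also carry Cxcr4, and macrophage and microglia markers (11 genes) summed to 0.502 to 0.668 CPM in iGABA, with C1qa, Cx3cr1 and Trem2 at no count, 2.15 to 2.60 CPM in GAD67 and 486 to 530.3 CPM in MEF libraries. Their part in the difference between iGABA and MEF was not tested.

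Ackr3 (ENSMUSG00000044337, mm10 chr1:90203980-90216751, plus strand), the scavenging receptor, stood at 19.4, 15.4 and 16.9 CPM in iGABA libraries, 93.9, 79.1 and 113 CPM in GAD67 libraries, and 34.1, 32.6 and 36.4 CPM in MEF libraries. The groups did not overlap, and iGABA cells were the lowest. Ackr3 was 5.53-fold lower in iGABA than in GAD67 cells (log2 fold change -2.47, 95% interval -2.73 to -2.20, edgeR adjusted p = 5.78e-10). Against MEF cells its log2 fold change in iGABA was -0.997 (95% interval -1.26 to -0.73, edgeR adjusted p = 6.00e-06). In GAD67 cells it was 2.77-fold above MEF (edgeR adjusted p = 5.37e-08). Endothelial cells carry Ackr3 too, and endothelial and mural markers (12 genes) summed to 39.7 to 51.8 CPM in iGABA, with Cdh5 and Tie1 at no count, 23.2 to 84.3 CPM in GAD67 and 711 to 766 CPM in MEF libraries, with Cldn5 at no count in MEF. By gene, 2 of the 12 were called higher and 10 lower in iGABA over GAD67 (median log2 fold change -4.11). In GAD67 over MEF, 4 were higher, 4 lower and 4 not called (median log2 fold change -0.018). Of all tested genes, 80.6% and 86.9% were called in these comparisons. In those comparisons the sums thus do not describe most genes of the list. In iGABA over MEF, 0 were higher, 9 lower and 3 not called. The median log2 fold change there was -3.53, or -3.64 with groups at no count set to 3 counts. Of all tested genes, 81.9% were called in iGABA over MEF, 39.7% lower. There the sums and most genes of the list went the same way. Within the GAD67 group the endothelial and mural sum was 46.6, 23.2 and 84.3 CPM in libraries 7, 8 and 9. Erbb4, Cxcr4, Ackr3, Cxcl12 and, within a narrow range, Cxadr were also lowest in library 8 and highest in library 9. Nrg2 had the reverse order, and Nrg1 and Nrg3 were highest in library 7 and lowest in library 9. How common each order is among all tested genes was not counted, so nothing is read from these orders. The part of endothelial and mural cells in these values was not tested.

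The balance of the receptors, as the log2 ratio of Cxcr4 to Ackr3 reads per kilobase, was -3.09 ± 0.347 in iGABA, 1.09 ± 0.122 in GAD67 and -2.92 ± 0.115 in MEF libraries (SD, n = 3). Ackr3 thus exceeded Cxcr4 in iGABA and MEF cells, and Cxcr4 exceeded Ackr3 in GAD67 cells. The difference of -4.18 between iGABA and GAD67 and that of 4.01 between GAD67 and MEF each gave an exact permutation p of 0.1 (adjusted p = 0.129 over 9 tests), with no overlap. Between iGABA and MEF the difference was -0.17 (exact permutation p = 0.6), and it turned to 0.030 without iGABA library 5.

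**Figure D3:**
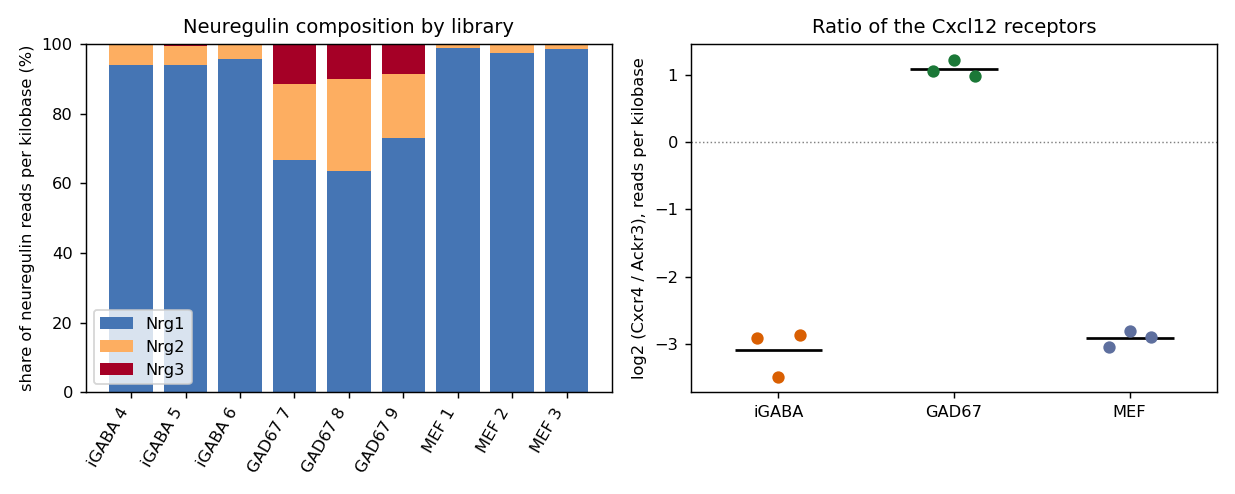
Left, share of Nrg1, Nrg2 and Nrg3 in neuregulin reads per kilobase, as stacked bars per library from 0 to 100%. Right, log2 ratio of Cxcr4 to Ackr3 reads per kilobase, one point per library with lines at group means, where GAD67 libraries lie between 0.99 and 1.23 and the highest of the others is at -2.81.

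Cxcl12 (ENSMUSG00000061353, mm10 chr6:117168535-117181367, plus strand), the chemokine itself, was highest in the fibroblasts. It stood at 2.05, 1.72 and 2.53 CPM in iGABA libraries, 3.53, 1.86 and 4.58 CPM in GAD67 libraries, and 502, 521 and 533 CPM in MEF libraries. The MEF libraries were far above all others, and the iGABA and GAD67 libraries overlapped. Cxcl12 was 249.7-fold lower in iGABA than in MEF cells (log2 fold change -7.96, 95% interval -8.41 to -7.52, edgeR adjusted p = 9.34e-13), the 148th of 18085 tested genes from the lowest ratio. Changes called at least 32-fold in iGABA over MEF made up 4.74% of tested genes in the lower and 3.84% in the higher direction, and Cxcl12 was the one among the 8 genes. GAD67 cells were 157-fold below MEF cells (edgeR adjusted p = 6.16e-13). In iGABA over GAD67 the log2 fold change was -0.67 (95% interval -1.22 to -0.12, edgeR adjusted p = 0.0261). That call ended without iGABA library 4 (edgeR adjusted p = 0.0652), iGABA library 5 (0.101), GAD67 library 7 (0.0732) or GAD67 library 9 (0.103, log2 fold change -0.39), with library size alone (0.104) and with only those groups in the fit (0.0711).

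Cxadr (ENSMUSG00000022865, mm10 chr16:78301496-78359785, plus strand), an immunoglobulin-family adhesion molecule known as the receptor of coxsackieviruses and adenoviruses and abundant in the developing brain, took a middle position in the converted cells. It stood at 73.0, 82.2 and 71.5 CPM in iGABA libraries, 239, 239 and 242 CPM in GAD67 libraries, and 36.1, 33.2 and 34.5 CPM in MEF libraries. The groups were separate, with iGABA between the others. Cxadr was 2.18-fold higher in iGABA than in MEF cells (log2 fold change 1.13, 95% interval 0.99 to 1.26, edgeR adjusted p = 1.85e-09) and 3.18-fold lower than in GAD67 cells (log2 fold change -1.67, 95% interval -1.80 to -1.54, edgeR adjusted p = 2.56e-11). In GAD67 cells it was 6.94-fold above MEF (edgeR adjusted p = 1.45e-13). Nrg2 also lay between the other groups, at a lower level.

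**Figure D4:**
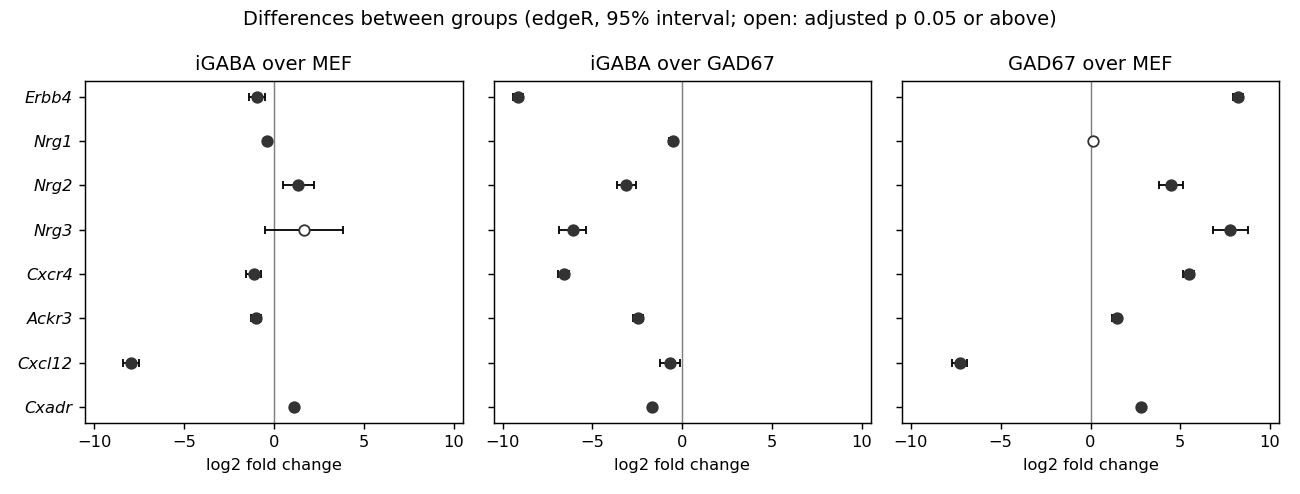
Log2 fold change of the 8 genes in the 3 comparisons with 95% intervals from edgeR, filled where the adjusted p was under 0.05 and open otherwise. The iGABA over GAD67 panel holds no value above 0, and Cxcl12 reaches -7.96 in iGABA over MEF.

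Ordered per length, each cell type had its own profile of the 8 genes. In iGABA cells Cxadr led at 11.97 ± 0.920 RPKM, followed by Ackr3 at 5.14 ± 0.603 and Nrg1 at 3.85 ± 0.158 RPKM. Cxcr4 (0.623 ± 0.188 RPKM), Cxcl12 (0.257 ± 0.04998), Nrg2 (0.209 ± 0.0438), Erbb4 (0.0842 ± 0.0165) and Nrg3 (0.0113 ± 0.00889) came after them. In GAD67 cells Cxcr4 (60.2 ± 5.91 RPKM) and Erbb4 (47.6 ± 5.92) led, before Cxadr (38.1 ± 0.262), Ackr3 (28.4 ± 5.02), Nrg1 (5.56 ± 0.0283), Nrg2 (1.85 ± 0.470), Nrg3 (0.828 ± 0.156) and Cxcl12 (0.406 ± 0.168). In MEF cells Cxcl12 led at 63.5 ± 1.88 RPKM, before Ackr3 (10.3 ± 0.579), Cxadr (5.49 ± 0.228), Nrg1 (5.005 ± 0.412), Cxcr4 (1.36 ± 0.111), Erbb4 (0.163 ± 0.00241), Nrg2 (0.0818 ± 0.0312) and Nrg3 (0.00327 ± 0.00287). Errors are SD over 3 libraries. The libraries of neighbours in these orders overlapped for Cxcl12 and Nrg2 in iGABA cells and for Cxadr and Nrg1 in MEF cells, and for no other pair.

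The pathway lists below are to be read against the shares of all tested genes. These were 42.1% higher and 39.7% lower in iGABA over MEF and 41.3% higher and 39.3% lower in iGABA over GAD67. In GAD67 over MEF they were 43.1% higher and 43.8% lower. A list with most genes called and a near even split is thus like genes at large. Of 11 other ErbB receptors and ligands, 8 could be tested. The counts were 5 higher and 3 lower (median log2 fold change 3.48) in iGABA over GAD67, 4 higher and 4 lower (median log2 fold change -0.37) in iGABA over MEF and 1 higher, 6 lower and 1 not called (median log2 fold change -4.89) in GAD67 over MEF, the last being 2 higher and 6 lower with library size alone. With the ligand Ereg at its bound the median in iGABA over GAD67 was 2.00. The co-receptors of ErbB4 were higher in iGABA than in GAD67 cells. Erbb2, which binds no ligand itself, stood at 25.7 ± 1.29 CPM in iGABA, 0.595 ± 0.0645 CPM in GAD67 and 62.4 ± 4.19 CPM in MEF libraries and was 42.8-fold higher in iGABA than in GAD67 cells (edgeR adjusted p = 1.45e-13). Erbb3, which binds neuregulins but has little kinase activity of its own, stood at 5.56 ± 0.366 CPM in iGABA, 0.141 ± 0.0549 CPM in GAD67 and 3.81 ± 0.293 CPM in MEF libraries and was 38.1-fold higher in iGABA than in GAD67 cells (edgeR adjusted p = 1.56e-10). The EGF receptor gene Egfr stood at 2.95 ± 0.586 CPM in iGABA, 5.87 ± 2.95 CPM in GAD67 and 199 ± 11.2 CPM in MEF libraries. Hbegf, an EGF-like ligand, was 17.6-fold lower in iGABA than in MEF cells (edgeR adjusted p = 1.75e-11). Btc, a ligand of EGFR and ErbB4, had 485 counts in iGABA, 1 in GAD67 and 173 in MEF libraries, with a ratio of iGABA to GAD67 of 477 (95% counting interval 85.1 to 18862). Ereg, a further ligand, had 13 counts in iGABA, none in GAD67 and 779 in MEF libraries, so it was at least 321-fold lower in GAD67 than in MEF cells, taking 3 counts over the group as the floor. Outside MEF libraries Ereg lay below the low-count filter, so its difference from MEF was a condition of being tested.

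Proteases that cut neuregulins and ErbB4 (10 genes) gave 1 higher, 8 lower and 1 not called (median log2 fold change -0.52) in iGABA over MEF, 5 higher, 4 lower and 1 not called (median log2 fold change 0.12) in iGABA over GAD67 and 1 higher, 8 lower and 1 not called (median log2 fold change -0.84) in GAD67 over MEF. With library size alone the first was 2 higher and 5 lower and the second 6 higher and 3 lower. The third was then 2 higher and 8 lower. Adam19, a sheddase of Nrg1, stood at 11.8 ± 2.93 CPM in iGABA, 65.8 ± 1.97 CPM in GAD67 and 456 ± 15.6 CPM in MEF libraries and was 38.9-fold lower in iGABA than in MEF cells (edgeR adjusted p = 9.67e-13). Adam17, another sheddase, stood at 55.1 ± 0.635 CPM in iGABA, 24.5 ± 4.58 CPM in GAD67 and 131 ± 0.854 CPM in MEF libraries. Psen2, a catalytic subunit of gamma-secretase, stood at 34.4 ± 1.74 CPM in iGABA, 6.18 ± 0.840 CPM in GAD67 and 12.02 ± 0.643 CPM in MEF libraries, 2.87-fold higher in iGABA than in MEF cells (edgeR adjusted p = 7.64e-09). Bace2, a beta-secretase, stood at 0.805 ± 0.149 CPM in iGABA, 0.0611 ± 0.0376 CPM in GAD67 and 1.66 ± 0.325 CPM in MEF libraries.

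Adapters and effectors of ErbB4 (16 genes) gave 6 higher, 8 lower and 2 not called (median log2 fold change -0.18) in iGABA over MEF, 5 higher, 10 lower and 1 not called (median log2 fold change -0.26) in iGABA over GAD67 and 5 higher, 9 lower and 2 not called (median log2 fold change -0.503) in GAD67 over MEF. With library size alone these were 9 higher and 5 lower, with Pik3ca changing direction, 6 higher and 7 lower, and 7 higher and 8 lower. Pik3r3, a regulatory subunit of PI3 kinase, stood at 72.3 ± 1.11 CPM in iGABA, 237 ± 29.0 CPM in GAD67 and 13.3 ± 0.419 CPM in MEF libraries, an order like that of Cxadr. The adapter gene Shc1 stood at 244 ± 4.81 CPM in iGABA, 11.6 ± 0.699 CPM in GAD67 and 154 ± 0.723 CPM in MEF libraries, and the transcription factor gene Stat5a at 69.7 ± 1.05 CPM in iGABA, 2.14 ± 0.436 CPM in GAD67 and 29.5 ± 0.882 CPM in MEF libraries, both highest in iGABA. Erbin, a scaffold that binds ErbB2, stood at 51.6 ± 1.70 CPM in iGABA, 223 ± 5.05 CPM in GAD67 and 211 ± 12.9 CPM in MEF libraries. Tab2, an adapter of the cleaved ErbB4 fragment, was 3.82-fold lower in iGABA than in MEF cells (edgeR adjusted p = 9.87e-13).

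Genes acting behind Cxcr4 and Ackr3 (16 genes) gave 9 higher and 7 lower (median log2 fold change 0.62) in iGABA over MEF, 7 higher, 8 lower and 1 not called (median log2 fold change -0.20) in iGABA over GAD67 and 9 higher, 5 lower and 2 not called (median log2 fold change 0.74) in GAD67 over MEF. With library size alone the first was 11 higher and 4 lower, with Gnai3 and Gnb1 changing direction. The second was then 7 higher and 6 lower, and the third 11 higher and 5 lower. Gnao1, a neuronal G protein alpha subunit, stood at 90.1 ± 4.33 CPM in iGABA, 622 ± 25.3 CPM in GAD67 and 11.98 ± 1.05 CPM in MEF libraries. Gnai1, an inhibitory alpha subunit of the kind chemokine receptors use, stood at 4.14 ± 0.665 CPM in iGABA, 61.6 ± 9.15 CPM in GAD67 and 30.1 ± 1.46 CPM in MEF libraries and was lowest in iGABA. Grk3, a kinase that desensitises activated receptors, stood at 135 ± 2.87 CPM in iGABA, 51.5 ± 11.1 CPM in GAD67 and 6.87 ± 1.06 CPM in MEF libraries, 19.7-fold higher in iGABA than in MEF cells (edgeR adjusted p = 2.38e-11). Dock1, an activator of Rac, stood at 72.7 ± 1.86 CPM in iGABA, 3.21 ± 0.202 CPM in GAD67 and 125 ± 5.56 CPM in MEF libraries, and the kinase gene Ptk2b at 7.83 ± 1.12 CPM in iGABA, 0.586 ± 0.0684 CPM in GAD67 and 27.0 ± 0.297 CPM in MEF libraries, both lowest in GAD67.

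Of 11 other chemokine genes, 8 could be tested, with 0 higher and 8 lower (median log2 fold change -2.23) in iGABA over MEF, 3 higher, 3 lower and 2 not called (median log2 fold change 0.42) in iGABA over GAD67 and 1 higher and 7 lower (median log2 fold change -3.83) in GAD67 over MEF. With library size alone the first was 0 higher and 6 lower, with Mif and Ackr1 losing their calls. The second was then 4 higher and 2 lower. Of all tested genes, 39.7% were called lower in iGABA over MEF and 43.8% in GAD67 over MEF. Cxcl14, a chemokine that can bind Cxcr4, stood at 9.68 ± 1.73 CPM in iGABA, 14.96 ± 5.203 CPM in GAD67 and 131 ± 5.54 CPM in MEF libraries. Dpp4, a protease that inactivates Cxcl12, stood at 0.138 ± 0.142 CPM in iGABA, 0.109 ± 0.0777 CPM in GAD67 and 3.58 ± 0.159 CPM in MEF libraries. Both were highest in MEF, like Cxcl12. Outside MEF cells Dpp4 was on average below the 0.281 CPM of the low-count filter. Its tests against MEF thus carry the filter limit given for Nrg3. Ackr1, another atypical chemokine receptor, stood at 0.267 ± 0.169 CPM in iGABA, 25.4 ± 0.935 CPM in GAD67 and 0.550 ± 0.190 CPM in MEF libraries. Cx3cr1, the fractalkine receptor of macrophages and microglia, had no count in iGABA, 57 counts in GAD67 and 1077 in MEF libraries, so it was at least 452-fold lower in iGABA than in MEF cells. Cd74, a receptor of the cytokine Mif, had 50 counts in iGABA, 2 in GAD67 and 90 in MEF libraries. Several of these are macrophage genes, and the macrophage marker sums given above were highest in the MEF group; their part in these differences was not tested.

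Relatives and scaffolds of Cxadr (12 genes) gave 6 higher, 4 lower and 2 not called (median log2 fold change 0.095) in iGABA over MEF, 6 higher and 6 lower (median log2 fold change -0.090) in iGABA over GAD67 and 5 higher, 5 lower and 2 not called (median log2 fold change 0.15) in GAD67 over MEF. With library size alone these were 7 higher and 3 lower, 6 higher and 5 lower, and 7 higher and 5 lower. Of the relatives, Igsf11 stood at 2.25 ± 0.266 CPM in iGABA, 9.77 ± 0.668 CPM in GAD67 and 0.352 ± 0.176 CPM in MEF libraries, an order like that of Cxadr. Clmp differed from it, at 15.2 ± 1.47 CPM in iGABA, 126 ± 8.01 CPM in GAD67 and 101 ± 3.97 CPM in MEF libraries. Esam, also an endothelial gene, stood at 0.471 ± 0.236 CPM in iGABA, 3.84 ± 1.65 CPM in GAD67 and 0.612 ± 0.179 CPM in MEF libraries. The junction molecule gene Jam2 stood at 73.4 ± 4.84 CPM in iGABA, 11.02 ± 0.375 CPM in GAD67 and 11.1 ± 1.28 CPM in MEF libraries. F11r, which encodes another junction molecule, stood at 49.4 ± 2.30 CPM in iGABA, 0.752 ± 0.378 CPM in GAD67 and 38.7 ± 2.07 CPM in MEF libraries, and was 66.4-fold higher in iGABA than in GAD67 cells (edgeR adjusted p = 2.21e-12).

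**Figure D5:**
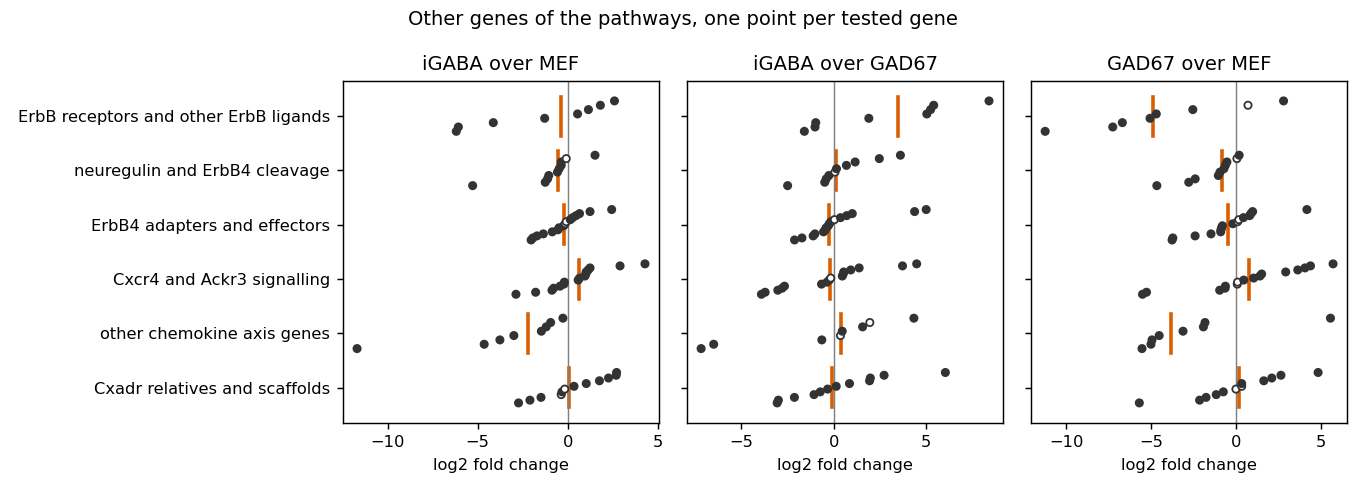
Log2 fold change of every tested gene of the 6 pathway lists in the 3 comparisons, one point per gene, filled where edgeR's adjusted p was under 0.05 and open otherwise, with the list median as an orange line. The list of ErbB receptors and ligands has its median at 3.48 in iGABA over GAD67 and -4.89 in GAD67 over MEF, and genes with no count in a group are drawn at their fitted value.

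The profiles most like each of the 8 genes were sought by the root-mean-square difference of log2 CPM over the 9 libraries, after subtracting each gene's own mean. The libraries form 3 groups, so a small difference describes a like order and spacing of 3 levels, with no test. The nearest to Erbb4 were Pou3f4 (0.32), Nr2e1 (0.37) and Vax1 (0.40), all transcription factor genes, with Vax1 at 0.178 CPM in iGABA, 104 CPM in GAD67 and 0.262 CPM in MEF libraries. For Cxcr4 they were Gria4 (0.33), Arl4d (0.35) and Cntnap4 (0.38), with Gria4, an AMPA receptor subunit gene, at 1.03 CPM in iGABA, 117 CPM in GAD67 and 1.83 CPM in MEF libraries. For Cxcl12 they were Cav1 (0.26), Lama4 (0.29) and Gm49339 (0.35), with the caveolin gene Cav1 at 2.02 CPM in iGABA, 2.72 CPM in GAD67 and 519 CPM in MEF libraries. For Cxadr they were Zfp668 (0.043), Dbn1 (0.058) and Zfp316 (0.087), with the drebrin gene Dbn1 at 413 CPM in iGABA, 1374 CPM in GAD67 and 191 CPM in MEF libraries. Nearest to Ackr3 were Pde7a (0.13), 2610008E11Rik (0.13) and Cttnbp2nl (0.14), with Pde7a at 26.3 CPM in iGABA, 147 CPM in GAD67 and 47.3 CPM in MEF libraries. Nearest to Nrg1 were U2af1 (0.048), Stam (0.055) and Sf1 (0.062), with the splicing factor gene U2af1 at 17.9 CPM in iGABA, 26.8 CPM in GAD67 and 23.8 CPM in MEF libraries. Nearest to Nrg2 were 2700033N17Rik (0.23), Grid1 (0.24) and AI593442 (0.24), and nearest to Nrg3 were 1110032F04Rik (0.29), Tex29 (0.35) and Cnpy1 (0.38).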

How the data were processed

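The authors deposited 1 table of whole-number read counts per gene for the 9 libraries, not normalised, with gene lengths in bases. Per the submitters' processing notes, BWA 0.7.2, featureCounts and DESeq 1.10.1 were used with mm10. Their order, the annotation release and the strand setting are not given in those sources. Per the labels' protocols, libraries were made by the dUTP method. Symbols came from GENCODE vM21 (35449 of 37224 genes). The 8 genes and the lists were chosen with earlier results of these data known. List genes are named when, in a comparison, they were among up to 3 called genes of their list with the largest absolute log2 fold change.

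Genes passed edgeR's filterByExpr (minimum count 10, minimum total 15), leaving 18085. All libraries were fitted together in edgeR 4.0.16 (R 4.3.3) with TMM scaling, 1 coefficient per group, the quasi-likelihood test and Benjamini-Hochberg adjustment over all tested genes. Depth limits low genes: a count of 0 allows 3 counts in a library. Ratios within libraries were compared by exact two-sided permutation tests (scipy 1.17.1). The scripts were tested on simulated data. DESeq2 1.42.0, other scalings, other filters, a fit of only the groups compared and leaving out each library were tried as alternatives. Upstream windows are RefSeq's (GRCm38.p6). Some items are not reported here.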

Additional observations from a re-analysis of the deposited data

How the results depend on the processing

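The 24 fold changes of the 8 genes were recomputed under 15 alternatives, giving 359 values, since Nrg3 in iGABA over MEF did not pass the low-count filter with only those groups in the fit. Of these, 351 kept direction and call, 6 kept the direction but lost the call, 1 gained the call, and 1 changed sign and lost its call. The 351 include Nrg3 against GAD67, where passing the low-count filter rested on the GAD67 libraries alone. The 6 were all Cxcl12 in iGABA over GAD67, whose log2 fold change ran from -0.96 to -0.39 over its alternatives. The gain was Nrg1 in GAD67 over MEF with scaling by library size alone, and the sign change was the log2 fold change of Nrg1 in iGABA over MEF, 0.040 with that scaling; the cause was not tested. Fold changes near 0 therefore hold relative to TMM scaling. Called genes among the 8 ranged from 6 to 7 in iGABA over MEF, 7 to 8 in iGABA over GAD67 and 7 to 8 in GAD67 over MEF. Leaving out single libraries, the iGABA minus MEF difference of the log2 Cxcr4 to Ackr3 ratio ran from -0.28 to 0.030. Differences in the shares of Nrg1 and Nrg3 kept their direction without each library and with raw counts in place of reads per kilobase, but raw counts changed their size: for Nrg1 to -5.59 points in iGABA minus MEF and -46.3 in GAD67 minus MEF (per length -3.70 and -30.6), and for Nrg3 to 0.683 and 24.2 (per length 0.219 and 9.95). No paired analysis was run. The replicate numbers run on across the groups, and the labels do not say whether libraries of different groups share a culture or animal. With 3 against 3 libraries the exact tests cannot go below 0.1.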

Other observations

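Of 15 interneuron identity genes, iGABA over MEF gave 11 higher, 3 lower and 1 not called (median log2 fold change 4.64), and iGABA over GAD67 gave 0 higher and 15 lower (median log2 fold change -4.15). Of all tested genes, 42.1% were called higher and 39.7% lower in iGABA over MEF, and 41.3% higher and 39.3% lower in iGABA over GAD67. Dlx5 and Lhx6 of the interneuron list are among the delivered factors, so their reads may include delivered copies, which was not tested. Sp9, an interneuron zinc finger factor, stood at 0.141 ± 0.0600 CPM in iGABA, 459 ± 21.3 CPM in GAD67 and 0.552 ± 0.280 CPM in MEF libraries, with a lower call in iGABA over MEF. Sp9 was chosen after its values were seen. It is 1 of the 3 genes called lower in iGABA over MEF, while 11 of the 15 went the other way.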
